A study of Homo sapiens with 4 samples.

Results

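The genes described here are 40 genes of sugar breakdown and of the cellular response to low oxygen, in 2 classes: 23 genes for glycolytic enzymes, their regulators and their sugar and lactate carriers, and 17 genes for subunits, regulators and targets of the hypoxia-inducible factors. They were chosen by name, and 39 of them were found among the 17825 genes of the deposited table. The expression of EGLN3 was not analysed here. RNA was sequenced from KYSE150, an established line of human esophageal squamous carcinoma cells, grown in RPMI1640 medium with serum. The siCEBPG group consisted of 2 libraries from cells transfected with 1 siRNA against CEBPG, which encodes C/EBP gamma, a transcription factor of the basic leucine zipper class. The Control group consisted of 2 libraries from the same line given a negative control. No source used here gives the siRNA sequence, the time after transfection or the oxygen level, and 1 siRNA in 1 line limits the groups as a model of CEBPG loss. Whether replicate libraries were grown as separate cultures is not stated, so the p-values cover only the spread among these 4 libraries, which may be technical spread.

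Glycolysis splits glucose into pyruvate in the cytosol, and lactate dehydrogenase turns pyruvate into lactate, which regenerates the NAD+ that the pathway consumes. Carcinoma cells often run this route at a high rate even with oxygen present. HIF1A and EPAS1 encode the oxygen-regulated alpha subunits of the hypoxia-inducible factors: prolyl hydroxylases mark them in oxygen, the VHL protein then directs them to degradation, and without oxygen they pair with ARNT and activate genes that include most glycolytic enzymes. Their regulation by oxygen acts mainly on the protein, which these RNA data do not measure.

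CEBPG itself had 214 and 204 counts in the siCEBPG libraries, against 792 and 751 counts in the Control libraries. That is 13.1 ± 0.439 CPM in siCEBPG and 51.5 ± 1.86 CPM in Control (SD, n = 2), which gives a log2 fold change of -1.98 with an SE of 0.0767 (edgeR adjusted p = 1.816e-11). CPM is the usual read count scaled by library size, here after TMM correction, fold changes are siCEBPG over Control on the log2 scale, and a gene counts as called where its edgeR quasi-likelihood p, adjusted over all genes tested, is under 0.05. Library totals were 15432762 and 15489075 counts in siCEBPG and 15536501 and 15515901 counts in Control. Over the 14207 genes tested, 54.3% were called, 28.8% lower and 25.5% higher, with a median log2 fold change of 0.0048. All 8 genes of an epithelial marker list were tested, with 50283 and 52039 summed counts in siCEBPG and 62881 and 63585 in Control. The list holds KRT8, EPCAM and CDH1, which are not particular to squamous epithelium. KRT8 alone had 22423 and 23532 counts in siCEBPG and 38704 and 39786 in Control, so it dominates the difference between the sums. KRT14, KRT17 and KRT6A had 70 to 201 counts per library. KRT5, TP63 and CDH1 rose, KRT14, KRT17 and KRT8 fell, and KRT6A and EPCAM were not called. Markers of stroma and immune cells (5 of 9 listed) summed to 236 and 200 counts in siCEBPG and 219 and 185 in Control. Retina markers, included because the design text uses the word retinal, summed to 56 and 46 counts in siCEBPG and 27 and 27 in Control (3 of 8 listed).

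Glycolytic genes were mostly lower after CEBPG siRNA. Of the 23, 19 fell, 2 rose (PFKL and PFKFB3) and 2 were not called (PFKM and PFKFB2), with log2 fold changes between -0.93 and 0.49 around a median of -0.36, against 28.8% lower, 25.5% higher and a median of 0.0048 over all genes tested. In the hypoxia class, of 16 tested, 9 fell, 3 rose (EPAS1, HIF1AN and VHL) and 4 were not called (ARNT, EGLN1, NDRG1 and P4HA2), with a median of -0.21 and a range of -1.05 to 0.37. With a library left out, fewer genes were called both in the hypoxia class and over all genes tested, and the hypoxia median lay between -0.24 and -0.18. The difference between the classes was not tested. All 39 genes passed the filter on low counts, and their counts ranged from 28 for ANKRD37 to 61160 for GAPDH. In CPM, both siCEBPG libraries lay below both Control libraries in 19 of 23 glycolytic genes and above them in 2, and in the hypoxia class below in 10 and above in 6, beside 38.2% below and 38% above over all genes tested. In bulk RNA, fewer cells with a transcript and less of it per cell cannot be told apart.

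**Figure D1:**
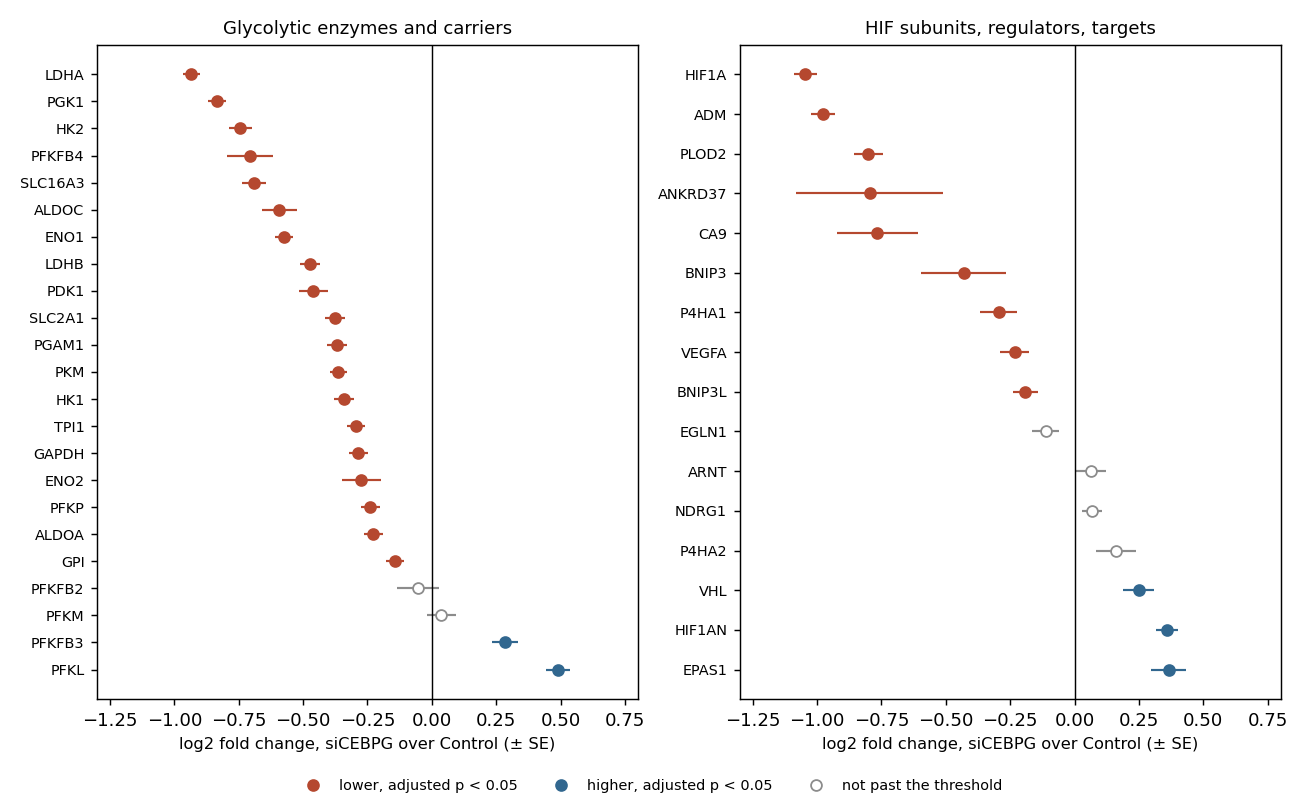
Log2 fold change of siCEBPG over Control for each of the 39 genes (horizontal axis, with bars of 1 standard error from edgeR), sorted within the glycolysis and the hypoxia class, with colour for genes called lower, called higher or not called. The glycolytic genes run from LDHA at -0.93 to PFKL at 0.49 and the hypoxia genes from HIF1A at -1.05 to EPAS1 at 0.37.

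Both sugar and lactate carriers fell. SLC2A1, which encodes the glucose transporter GLUT1, had 214 and 215 CPM in siCEBPG, against 272 and 284 CPM in Control (log2 fold change -0.37 with SE 0.0391, edgeR adjusted p = 1.064e-06). SLC16A3, which encodes the lactate exporter MCT4, had 67.4 and 68.1 CPM in siCEBPG, against 109.7 and 109 CPM in Control (log2 fold change -0.69 with SE 0.0473, edgeR adjusted p = 1.041e-08). In both genes the libraries of a group lay close together and the groups did not overlap. Of the hexokinases, which trap glucose in the cell as glucose 6-phosphate, HK2 fell further than HK1: HK2 had 82.1 and 82.2 CPM in siCEBPG, against 137 and 138 CPM in Control, a log2 fold change of -0.74 with an SE of 0.0447 (edgeR adjusted p = 2.44e-09). HK1 had 205 and 204 CPM in siCEBPG, against 256 and 261 CPM in Control, a log2 fold change of -0.34 with an SE of 0.0379 (edgeR adjusted p = 2.107e-06). GPI, which encodes the isomerase of the next step, changed least of the called enzymes, with a log2 fold change of -0.14 with an SE of 0.0348 (edgeR adjusted p = 0.00265). GPI was not called with total-count scaling (-0.04) or upper-quartile scaling (-0.07), nor without siCEBPG replicate 1 (-0.12), Control replicate 1 (-0.15) or Control replicate 2 (-0.14).

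The 3 phosphofructokinase genes, whose products catalyse the committed step of glycolysis, went different ways. PFKL, the liver type, had 146 and 158 CPM in siCEBPG, against 108 and 108 CPM in Control, and rose by a log2 fold change of 0.49 with an SE of 0.0479 (edgeR adjusted p = 5.331e-07). PFKP, the platelet type and per length the most abundant of the 3 (84.0 RPKM in siCEBPG and 92.6 RPKM in Control), had 383 and 402 CPM in siCEBPG, against 468 and 458 CPM in Control (log2 fold change -0.24 with SE 0.0373, edgeR adjusted p = 6.65e-05). PFKM, the muscle type, overlapped between groups, with 69.0 and 75.5 CPM in siCEBPG and 71.1 and 69.7 CPM in Control (log2 fold change 0.04, edgeR adjusted p = 0.5997). PFKL was higher in both siCEBPG libraries than in either Control library, and it was the only glycolytic enzyme gene apart from PFKFB3 that was called higher.

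The bifunctional PFKFB enzymes set the level of fructose 2,6-bisphosphate, the activator of phosphofructokinase, and their genes were also divided. PFKFB3, whose product mainly makes the activator, had 76.7 and 76.9 CPM in siCEBPG, against 63.5 and 62.5 CPM in Control (log2 fold change 0.29 with SE 0.0505, edgeR adjusted p = 0.0002091). PFKFB4 had 13.4 and 13.6 CPM in siCEBPG, against 21.7 and 22.3 CPM in Control (log2 fold change -0.71 with SE 0.0887, edgeR adjusted p = 7.481e-06). PFKFB3 was higher and PFKFB4 lower in both siCEBPG libraries than in either Control library, and the fold change of PFKFB3 was 0.14, still called, once the trend with GC content and length was removed. PFKFB2 overlapped between groups, with 27.5 and 25.4 CPM in siCEBPG and 28.997 and 25.9 CPM in Control (log2 fold change -0.05, edgeR adjusted p = 0.5984).

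Each gene of the middle and lower steps fell. The aldolase genes ALDOA and ALDOC changed by -0.23 and -0.59 on the log2 scale (SE 0.0366 and 0.068), and TPI1, which encodes triosephosphate isomerase, by -0.30 (SE 0.0355). GAPDH, the glyceraldehyde phosphate dehydrogenase gene that is often used as a reference transcript, had 3220.1 and 3421 CPM in siCEBPG, against 4008 and 4085 CPM in Control (log2 fold change -0.29 with SE 0.0362, edgeR adjusted p = 8.438e-06). PGK1, whose product makes the first ATP of the pathway, showed a larger difference than GAPDH, with 456 and 458 CPM in siCEBPG, against 816 and 813 CPM in Control. Its log2 fold change was -0.84 (SE 0.0338, edgeR adjusted p = 2.852e-11), a level 1.78-fold lower in siCEBPG. PGAM1, which encodes phosphoglycerate mutase, changed by -0.37 (SE 0.0402). ENO1, the main enolase gene, had 1038 and 1088 CPM in siCEBPG, against 1556 and 1609 CPM in Control (log2 fold change -0.57 with SE 0.0359, edgeR adjusted p = 3.84e-09). ENO2, an enolase gene best known from neurons, was lower by -0.27 (SE 0.0759, edgeR adjusted p = 0.006635). ENO2 was not called with total-count scaling (-0.18) or without siCEBPG replicate 1 (-0.18), Control replicate 1 (-0.29) or Control replicate 2 (-0.27). PKM, the pyruvate kinase gene, had 1812 and 1879 CPM in siCEBPG, against 2354 and 2396 CPM in Control (log2 fold change -0.36 with SE 0.0339, edgeR adjusted p = 3.162e-07). The gene-level counts do not separate the PKM1 and PKM2 splice forms.

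At the fate of pyruvate, LDHA showed the largest fall of the glycolytic class. LDHA encodes the lactate dehydrogenase subunit that favours lactate formation and had 1087 and 1121 CPM in siCEBPG, against 2121 and 2097 CPM in Control. Its log2 fold change was -0.93 (SE 0.0337, edgeR adjusted p = 9.599e-12), a level 1.91-fold lower in siCEBPG. LDHB, the other subunit, fell less, with 458 and 483 CPM in siCEBPG, against 639 and 667 CPM in Control (log2 fold change -0.47 with SE 0.0385, edgeR adjusted p = 7.02e-08). PDK1, which encodes a kinase that holds pyruvate dehydrogenase inactive, had 54.1 and 52.6 CPM in siCEBPG, against 75.8 and 71.0 CPM in Control (log2 fold change -0.46 with SE 0.0557, edgeR adjusted p = 5.114e-06). GAPDH, LDHA, PGK1, ENO1, PGAM1 and TPI1 have processed pseudogenes of near-identical sequence, and no source used here says how shared reads were assigned, so their values are uncertain to that extent.

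**Figure D2:**
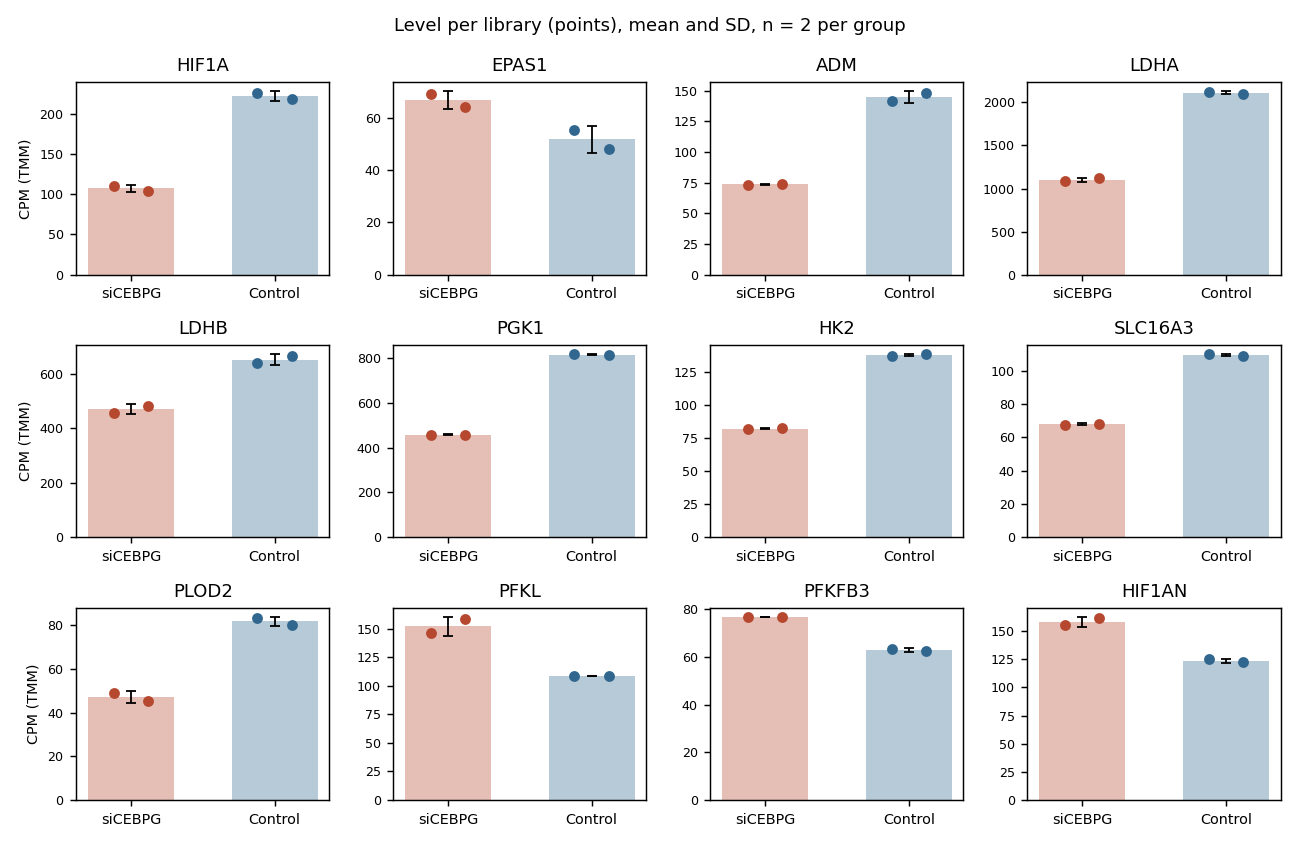
CPM on the TMM-scaled library size (vertical axis) for 12 genes, 1 panel each, with the 2 siCEBPG libraries as points to the left and the 2 Control libraries to the right; bars are means and error bars the SD (n = 2). HIF1A, ADM, LDHA, LDHB, PGK1, HK2, SLC16A3 and PLOD2 lie lower in siCEBPG, and EPAS1, PFKL, PFKFB3 and HIF1AN higher, with no overlap between groups in any panel.

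Per length, the class lost ground as a whole and its order shifted at the top. Glycolytic genes held 1.29% and 1.34% of all counts in siCEBPG, against 1.61% and 1.64% in Control, and their deposited RPKM values summed to 2936 and 3061 in siCEBPG, against 3640.3 and 3703 in Control. GAPDH alone made up 38.2% and 38.7% of that sum in siCEBPG and 35.7% and 35.8% in Control. The 16 hypoxia genes took 0.110% and 0.108% of the counts in siCEBPG and 0.121% and 0.119% in Control. In mean RPKM, GAPDH ranked first of the 23 in both groups. LDHA ranked 6 in siCEBPG, with 184 ± 3.44 RPKM, and 3 in Control, with 328 ± 2.81 RPKM (SD, n = 2). ALDOA ranked 2 in siCEBPG and 4 in Control, with 279.6 ± 8.22 RPKM in siCEBPG and 306 ± 9.98 RPKM in Control, so it moved up while its own level was lower. In siCEBPG, ALDOA (273.84 and 285.47 RPKM) lay only slightly above ENO1 (271.56 and 283.36 RPKM) in each library. ENO1 stood at 277 ± 8.34 RPKM in siCEBPG and at 386 ± 8.92 RPKM in Control. PFKL ranked 14 in siCEBPG and 17 in Control, and HK2 16 in siCEBPG and 14 in Control. The deposited RPKM values are scaled to total counts, under which a fold change lies about 0.1 log2 higher than under TMM.

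Within enzyme families, transcript balance is given as each gene's share of the family's summed RPKM. LDHA made up 53.3% and 52.7% of LDHA plus LDHB in siCEBPG, against 61.5% and 60.2% in Control, a difference of -7.83 percentage points. PFKL made up 15.6% and 15.9% of the phosphofructokinase sum in siCEBPG, against 10.2% and 10.4% in Control, while PFKP made up 75.4% and 74.8% in siCEBPG, against 81.6% and 81.4% in Control. Among the PFKFB genes, the share of PFKFB3 was 73.6% and 74.3% in siCEBPG, against 63.9% and 64.3% in Control, and that of PFKFB4 was 11.5% and 11.8% in siCEBPG, against 19.7% and 20.7% in Control. PFKP and PFKFB3 thus remained the main members of their families in every library. HK2 made up 28.98% and 29.06% of HK1 plus HK2 in siCEBPG, against 35.19% and 34.97% in Control. The largest difference was in the HIF alpha subunits, where HIF1A made up 69.4% and 69.7% of HIF1A plus EPAS1 in siCEBPG, against 85.3% and 86.5% in Control, or -16.3 percentage points. Of the 13 shares computed, 12 did not overlap between groups, each with p = 0.333 in an exact two-sided permutation test, the smallest p that 2 against 2 libraries allow. The share of BNIP3 in BNIP3 plus BNIP3L overlapped (p = 0.667, same exact permutation test). In CPM, groups without overlap were also common over all genes tested, with siCEBPG below in 38.2% and above in 38%. Shares within 1 family are parts of the same sum, so the 13 shares are not independent.

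**Figure D3:**
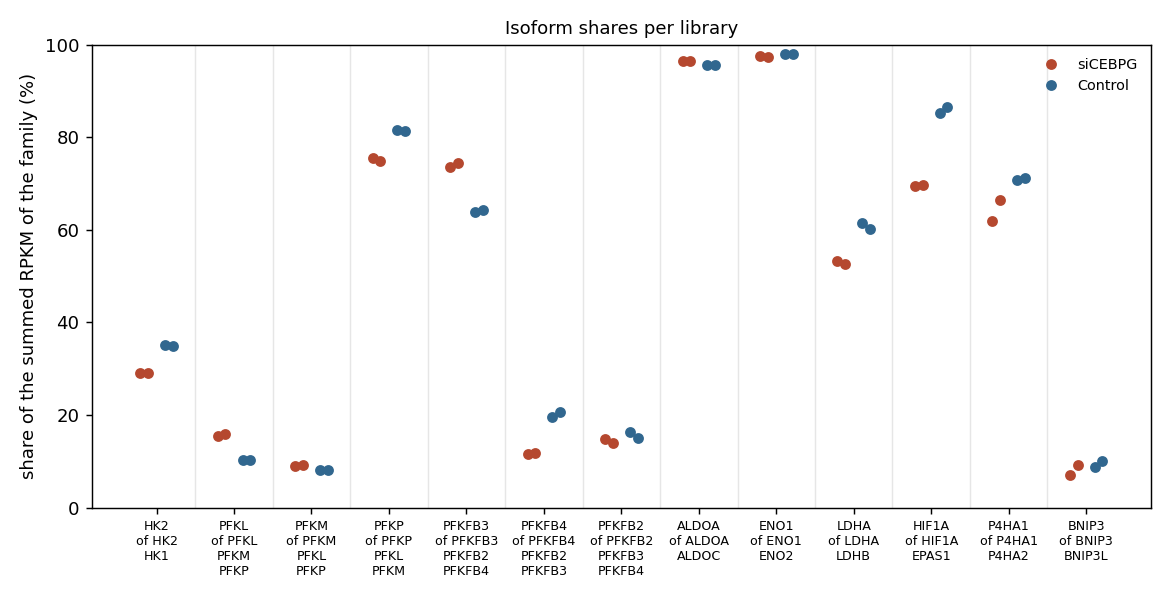
Share of a gene in the summed RPKM of its family (vertical axis, percent), with siCEBPG libraries to the left of Control libraries for each of the 13 shares and 1 point per library. HIF1A, LDHA, HK2, PFKP and PFKFB4 took smaller shares in siCEBPG and PFKL and PFKFB3 larger ones.

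In the HIF core, the alpha subunit genes moved in opposite directions. HIF1A had 111 and 105 CPM in siCEBPG, against 226 and 218 CPM in Control, the largest fall of all 39 genes (log2 fold change -1.05 with SE 0.0447, edgeR adjusted p = 5.45e-11), or 2.06-fold lower. EPAS1, which encodes HIF-2 alpha, had 69.1 and 64.3 CPM in siCEBPG, against 55.4 and 48.1 CPM in Control (log2 fold change 0.37 with SE 0.0674, edgeR adjusted p = 0.0003019). The EPAS1 groups did not overlap, but the Control libraries lay apart, and the gene was not called without siCEBPG replicate 1 (0.32, edgeR adjusted p = 0.07414) or Control replicate 2 (0.26, edgeR adjusted p = 0.07218). ARNT, the shared partner, had 50.5 and 49.1 CPM in siCEBPG and 46.9 and 48.5 CPM in Control and was not called (log2 fold change 0.06, edgeR adjusted p = 0.3868); with total-count scaling it was called, at 0.16.

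Of the 3 listed members for HIF hydroxylation and VHL, 2 rose and EGLN1 was not called, beside 25.5% higher over all genes tested. EGLN2, a further prolyl hydroxylase gene that is not a member, was not called either (-0.20, edgeR adjusted p = 0.2464). HIF1AN, which encodes the asparagine hydroxylase FIH that blocks HIF activity in oxygen, had 155 and 162 CPM in siCEBPG, against 125 and 122 CPM in Control (log2 fold change 0.36 with SE 0.0435, edgeR adjusted p = 5.432e-06). VHL had 67.3 and 66.2 CPM in siCEBPG, against 53.0 and 59.2 CPM in Control (log2 fold change 0.25 with SE 0.0601, edgeR adjusted p = 0.002525). The VHL call was lost without siCEBPG replicate 1 (0.24), siCEBPG replicate 2 (0.26) or Control replicate 1 (0.17), and HIF1AN was called in each of the 13 alternatives, at 0.19 with the trend on GC content and transcript length removed. EGLN1, the main prolyl hydroxylase gene, had 63.2 and 62.6 CPM in siCEBPG and 69.9 and 66.1 CPM in Control (log2 fold change -0.11, edgeR adjusted p = 0.08912); it was called lower, at -0.14, once the trend with GC content and length was removed.

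HIF target genes outside glycolysis differed widely. ADM, which encodes the peptide hormone adrenomedullin, had 73.3 and 73.7 CPM in siCEBPG, against 141 and 148 CPM in Control (log2 fold change -0.98 with SE 0.047, edgeR adjusted p = 2.064e-10). PLOD2, a lysyl hydroxylase gene for collagen, had 48.9 and 45.1 CPM in siCEBPG, against 83.4 and 80.4 CPM in Control (log2 fold change -0.80 with SE 0.057, edgeR adjusted p = 1.627e-08). In both, each siCEBPG library was well below each Control library. P4HA1, a collagen prolyl hydroxylase subunit gene, was lower by -0.29 (SE 0.0723, edgeR adjusted p = 0.002962), and its relative P4HA2 was not called (0.16, edgeR adjusted p = 0.09488). VEGFA, the angiogenic growth factor gene, had 48.4 and 48.2 CPM in siCEBPG, against 57.3 and 56.0 CPM in Control (log2 fold change -0.23 with SE 0.0561, edgeR adjusted p = 0.002677). NDRG1, a gene strongly induced by low oxygen in many cell types, had 186 and 189.9 CPM in siCEBPG and 179.9 and 179 CPM in Control and was not called (0.07, edgeR adjusted p = 0.1686). The direction of NDRG1 turned with the processing, being called higher with total-count scaling (0.17) and -0.07, not called, once the GC and length trend was removed. BNIP3L, a gene for a mitophagy receptor, was lower by -0.19 (SE 0.0483, edgeR adjusted p = 0.00355).

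The other hypoxia targets were read at low depth. CA9, the carbonic anhydrase gene often used as a hypoxia marker, had 64 and 82 counts in siCEBPG, against 113 and 120 in Control (log2 fold change -0.77 with SE 0.157, edgeR adjusted p = 0.0007372). BNIP3, a relative of BNIP3L, had 67 and 84 counts in siCEBPG, against 89 and 102 in Control (-0.43, SE 0.165, edgeR adjusted p = 0.03797). ANKRD37 had 28 and 37 counts in siCEBPG, against 37 and 69 in Control, so 1 library of each group had the same count (-0.80, SE 0.284, edgeR adjusted p = 0.02767). All 3 passed the test, but BNIP3 was lost in 9 of its 13 alternatives and ANKRD37 in 5 of 12, where CA9 was lost once, without Control replicate 2 (-0.73, edgeR adjusted p = 0.06826). Without Control replicate 2, ANKRD37 stood at -0.28 and BNIP3 at -0.33. Without siCEBPG replicate 1 they stood at -0.61 and -0.27, without siCEBPG replicate 2 at -1.01 and -0.60, and without Control replicate 1 BNIP3 stood at -0.53, none of these called. P4HA1 was lost without siCEBPG replicate 1 (-0.26), Control replicate 1 (-0.28) or Control replicate 2 (-0.32), BNIP3L without siCEBPG replicate 2 (-0.13), Control replicate 1 (-0.19) or Control replicate 2 (-0.20), and VEGFA without Control replicate 1 (-0.22). With total-count scaling BNIP3L (-0.09), VEGFA (-0.13) and BNIP3 (-0.33) were not called. P4HA2 was called higher in 5 alternatives, without siCEBPG replicate 2 (0.27), with upper-quartile scaling (0.23), total counts (0.26) or the filter at 5 CPM (0.20), and with the replicate number as a block (0.16, edgeR adjusted p = 0.0391). In all, 19 of the 21 glycolytic calls held in every alternative, and 4 of the 12 hypoxia calls did, HIF1A, ADM, PLOD2 and HIF1AN. Calls over all genes tested also became fewer with each library left out. The share of those calls that held in every alternative was not computed, so these counts are not read as a trait of either class.

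The authors' deposited table, with its own adjusted p under 0.05, has 19 glycolytic genes lower and 2 higher and 7 hypoxia genes lower and 3 higher, beside 18% lower and 12.4% higher of all genes in it.

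Promoters of LDHA and PGK1, the glycolytic genes that fell most, were examined for the hypoxia response core ACGTG and its variant GCGTG, read on either strand. RefSeq windows on GRCh38.p14, of 250 bases before to 50 after a start, matched 22 of the 23 glycolytic genes (48 windows) and 13 hypoxia genes (14 windows). The 13 include EGLN3, whose expression was not analysed here and whose 1 window holds neither ACGTG nor GCGTG. The hypoxia shares are thus not of genes in the table alone. ACGTG was present in 37.5% of the glycolytic windows and 42.9% of the hypoxia windows, against 25.1% of the 14950 windows of genes in the table. ACGTG or GCGTG was present in 64.6% of glycolytic and 64.3% of hypoxia windows, against 59.6% of the windows of genes in the table. Counted per gene with a match in any window, ACGTG was in 63.6% of glycolytic and 46.2% of hypoxia genes, against 31.9% of 10272 genes. ACGTG or GCGTG was in 95.5% and 69.2%, against 68.9%. A gene with more windows has more room for a match, and windows per gene were not equal between these sets. One LDHA window, chr11:18394313-18394612 on the plus strand, holds 5 ACGTG and 1 GCGTG matches counted over both strands, where CACGTG reads on each strand and counts as 2. A PGK1 window, chrX:78103998-78104297 on the plus strand, holds 3 and 1. A second LDHA window holds no ACGTG and 1 GCGTG, as does the PFKL window at chr21:44299803-44300102 on the plus strand. Matches were found in genes of both directions and missing in others. No window of HIF1A or ADM, the 2 largest falls, holds ACGTG, but the ADM window and 1 HIF1A window hold 1 GCGTG each. The window of HIF1AN, which rose, holds neither. The PGAM1 window, chr10:97427568-97427867, also holds neither, and PGAM1 fell. That window lies inside the gene, which begins at 97426191, so it does not cover that start. Of the 2 windows of PFKFB3, which rose, 1 holds 2 ACGTG matches and the other 1 GCGTG. Capitals mark the matches, those on the minus strand as their reverse complement; they are descriptions of letters and not of bound sites.
LDHA: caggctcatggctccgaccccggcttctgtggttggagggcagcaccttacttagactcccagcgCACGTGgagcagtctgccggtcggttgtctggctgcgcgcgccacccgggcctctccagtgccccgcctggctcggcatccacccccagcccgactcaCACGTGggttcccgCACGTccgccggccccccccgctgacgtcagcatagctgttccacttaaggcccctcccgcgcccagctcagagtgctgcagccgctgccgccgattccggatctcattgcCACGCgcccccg
PGK1: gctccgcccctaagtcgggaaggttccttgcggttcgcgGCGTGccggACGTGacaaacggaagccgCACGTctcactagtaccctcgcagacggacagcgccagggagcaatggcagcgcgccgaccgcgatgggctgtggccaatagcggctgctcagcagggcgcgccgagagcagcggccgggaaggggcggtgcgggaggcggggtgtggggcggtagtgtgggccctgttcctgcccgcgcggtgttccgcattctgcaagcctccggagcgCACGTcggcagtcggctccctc
PFKL: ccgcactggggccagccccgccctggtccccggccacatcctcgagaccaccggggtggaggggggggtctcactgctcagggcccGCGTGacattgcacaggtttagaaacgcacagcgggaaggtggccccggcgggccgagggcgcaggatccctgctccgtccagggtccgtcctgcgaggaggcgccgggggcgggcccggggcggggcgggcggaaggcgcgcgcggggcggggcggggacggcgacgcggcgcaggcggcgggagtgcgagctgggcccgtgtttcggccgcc

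The composite ATF and C/EBP word TGATGNAA was present in 2 of the 48 glycolytic windows, both of them overlapping windows of HK1, and in none of the 14 hypoxia windows, against 2.09% of the windows of genes in the table. A window without a match says only that these letters are not in it.

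Transcripts were also searched for the 7-base word GGCTATT and its shift by 1 base, GCTATTA, and for CGGAGAA and TCGGAGA, likewise shifted by 1 base. These words came from an earlier analysis of the same fold changes, so counts of members that hold them are a description. Sequences are from GENCODE 29 transcripts on GRCh38, with the word in capitals and 9 bases on each side, and 1 transcript per gene. CEBPG has GGCTATT in its 3' UTR. So do LDHA and PGK1, while LDHA and LDHB also carry it in their coding sequences, in exon 7 of each. HIF1A has GCTATTA near the end of its 3' UTR in exon 15. PLOD2 has GGCTATT in coding exons 15 and 18, and HIF1AN, which rose, has it in its 3' UTR. VHL, which rose, has GGCTATT in its 5' UTR, and ARNT, which was not called, has it in coding exon 2. The sites printed below are not all those of the members.
CEBPG 3' UTR, chr19:33379810-33379816, plus strand: cccattggaGGCTATTttctgggat
LDHA 3' UTR, chr11:18407923-18407929, plus strand: gaaatattaGGCTATTcttgggcaa
LDHA coding, chr11:18405488-18405494, plus strand: cacatcctgGGCTATTggactctct
LDHB coding, chr12:21637149-21637155, minus strand: taccaactgGGCTATTggattaagt
PGK1 3' UTR, chrX:78128895-78128901, plus strand: tcaatctaaGGCTATTtaatataca
HIF1A 3' UTR, chr14:61748053-61748059, plus strand: cactttgtcGCTATTAacatccttt
PLOD2 coding, chr3:146076849-146076855, minus strand: aatttggaaGGCTATTatccactgc
PLOD2 coding, chr3:146071285-146071291, minus strand: gtctttgcaGGCTATTatacgaagg
HIF1AN 3' UTR, chr10:100557772-100557778, plus strand: ctcttatgtGGCTATTgagaatgaa

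GGCTATT was present in the transcripts of 3 of 23 glycolytic genes and 4 of 16 hypoxia genes, against 12.4% of 14035 listed genes with a matched transcript. Of the 9 members with GGCTATT or GCTATTA, 6 were called lower, 2 higher and 1 not called, with a median log2 fold change of -0.47. Of the 30 members with neither word, 22 were called lower, 3 higher and 5 not called, with a median of -0.29. Over all genes tested, with or without these words, 28.8% were called lower and 25.5% higher. The 3 largest falls of all members, HIF1A, ADM and LDHA, include 2 genes with such a word and 1, ADM, with neither. As the words came from the same fold changes, nothing is read from this split. PFKL and PFKP, which moved in opposite directions, both hold CGGAGAA in exon 18, with nearly the same bases around it.
PFKL coding, chr21:44324875-44324881, plus strand: agcacatgaCGGAGAAgatgaagac
PFKP coding, chr10:3132399-3132405, plus strand: agcacctgaCGGAGAAaatgaagac

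All 5 members called higher, PFKL, PFKFB3, EPAS1, VHL and HIF1AN, hold at least 1 of the 4 words, so a fit without such genes could not call them. In that fit 12 of 14 remaining glycolytic genes and 4 of 7 remaining hypoxia genes were lower, beside 26% lower and 22.5% higher of the 9614 genes tested, and since the words came from the same fold changes nothing is read from these counts.

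Genes around glycolysis and HIF were described from 8 further lists, chosen with earlier results of these data known. Their 117 tested genes held 51 lower and 20 higher calls, beside 28.8% lower and 25.5% higher over all genes tested. Of these calls 35 lower and 5 higher ones held in every alternative. In the pentose phosphate list 3 of 8 fell and 2 rose, with a median log2 fold change of -0.01: RPE (-0.55) and PGD (-0.32) held in every alternative. TALDO1 (-0.22) was lost without Control replicate 1 (-0.23) or 2 (-0.22). H6PD (0.27) was lost without siCEBPG replicate 1 (0.22) or either Control replicate (0.20 and 0.34), and was at 0.01 once the GC and length trend was removed. RPIA (0.21) was lost without any 1 library (0.13 to 0.29), without a filter and with DESeq2. In the list of pyruvate entry into mitochondria 7 of 12 fell, led by the phosphatase gene PDP2 (-0.60) and the pyruvate dehydrogenase complex genes DLAT (-0.55) and PDHX (-0.54), and 2 rose. Those 2 were the kinase gene PDK2 (0.41), lost without siCEBPG replicate 2 (0.35) or Control replicate 1 (0.33), and DLD (0.14), lost without siCEBPG replicate 2 (0.09) or either Control replicate (0.16 and 0.11), without a filter or with DESeq2. In the citric acid cycle list 9 of 19 fell and 1 was called higher, with the fumarase gene FH lowest (-0.45, SE 0.0516, edgeR adjusted p = 3.308e-06).

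Glycogen and gluconeogenesis genes were divided, with 4 of 9 lower and 3 called higher. The glycogen branching enzyme gene GBE1 had 18.5 and 20.6 CPM in siCEBPG, against 34.9 and 33.7 CPM in Control (log2 fold change -0.81 with SE 0.0794, edgeR adjusted p = 5.381e-07), and PGM2 (-0.68), the glycogen phosphorylase gene PYGL (-0.40) and UGP2 (-0.22) also fell. Among the higher ones were the glycogen synthase gene GYS1 (0.27), lost without siCEBPG replicate 2 (0.23) or Control replicate 2 (0.20), and PCK2 (0.23), lost without siCEBPG replicate 2 (0.16) or either Control replicate (0.20 and 0.25), without a filter, with DESeq2 or with the GC and length trend removed. Among other isoforms and carriers, 3 of 12 fell and 1 was called higher. C12orf5 had 21.1 and 22.9 CPM in siCEBPG, against 36.5 and 38.9 CPM in Control (-0.78); its product, TIGAR, lowers fructose 2,6-bisphosphate. SLC16A1, the gene of the monocarboxylate carrier MCT1, fell by 0.46 on the log2 scale, and ADPGK (-0.27) was lost without Control replicate 1 (-0.23).

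Of 14 genes of HIF degradation and cofactors, 7 fell and 1 rose, with a median of -0.26. CITED2, whose product competes with HIF for the coactivators CREBBP and EP300, had 113 and 109 CPM in siCEBPG, against 240.4 and 254 CPM in Control (log2 fold change -1.15 with SE 0.0441, edgeR adjusted p = 1.632e-11). CREBBP rose by 0.31 (SE 0.0421, edgeR adjusted p = 1.536e-05) and was at 0.05, not called, once the GC and length trend was removed. In a list of 30 further hypoxia targets 14 fell and 7 rose, with a median of -0.19. The largest fall was IGFBP3, the gene of an insulin-like growth factor binding protein (-0.80, SE 0.102, edgeR adjusted p = 8.835e-06), and the largest rise RORA (0.80, SE 0.312, edgeR adjusted p = 0.04072), lost without any 1 library (0.54 to 1.12), without a filter or with DESeq2. The list of upstream regulators of glycolysis had 4 of 14 lower, 4 higher and a median of -0.00, a lower share close to the 28.8% of all genes tested. MYC, which activates many glycolytic genes, had 13.0 and 12.4 CPM in siCEBPG, against 27.0 and 28.6 CPM in Control (log2 fold change -1.13 with SE 0.0874, edgeR adjusted p = 3.942e-08). PRKAA1 (-0.90) and PRKAG1 (-0.48), subunit genes of the AMP-activated kinase, fell, and SIRT6 (-0.27) was lost without Control replicate 2 (-0.27). MLXIP, which encodes a glucose-responsive factor, had 252 and 252 CPM in siCEBPG, against 135 and 139 CPM in Control (log2 fold change 0.88 with SE 0.0402, edgeR adjusted p = 1.153e-10). STK11 (0.29) was lost without Control replicate 2 (0.25), and ARRDC4 (0.21) was lost without any 1 library (0.19 to 0.23) or with DESeq2. Whether any of these differences bears on those of the glycolytic or hypoxia genes was not tested.

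**Figure D4:**
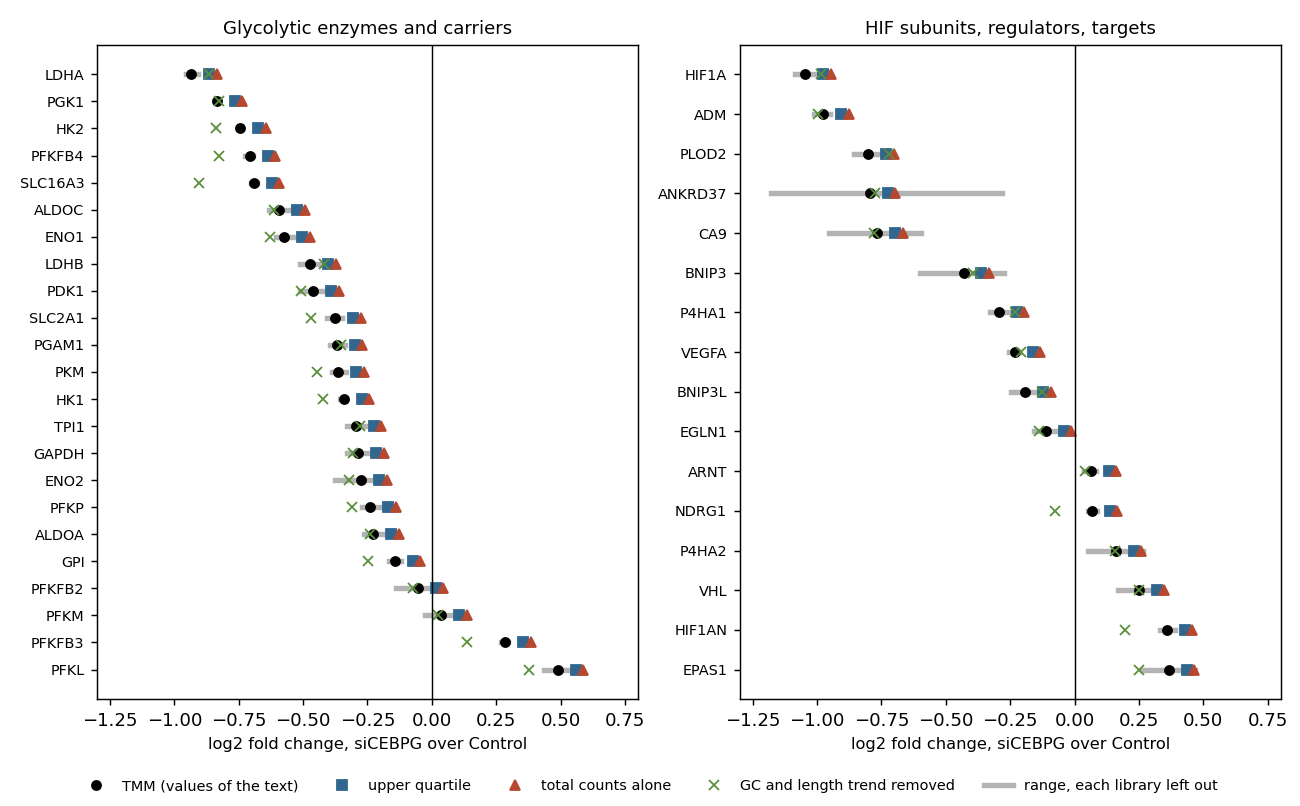
Log2 fold change of siCEBPG over Control (horizontal axis) for each gene under TMM, upper-quartile and total-count scaling and with the trend on GC content and transcript length removed, and as a grey bar the range with each library left out in turn. Each of the 19 glycolytic genes called lower stays below 0 under these settings, and PFKFB2, PFKM and NDRG1 cross 0.

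Scaling moved calls of genes near 0. The median over all genes was 0.10 with total counts against 0.0048 with TMM, and the glycolytic median was -0.26 with total counts, since this scaling shifts all genes alike. With total counts the hypoxia class had 6 genes lower and 6 higher, in place of 9 lower and 3 higher. Over all genes tested, 21.7% were lower with total counts against 28.8% with TMM. Of all calls, 61.6% were higher with total counts against 46.9% with TMM, so the class counts moved with those of all genes.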

How the data were processed

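RNA-seq of 2 siCEBPG and 2 Control libraries of KYSE150 cells was used, with groups and replicate numbers taken from the sample titles. The members and gene lists were chosen with earlier results of these data known. The submitters' processing notes name RSEM 1.2.12, Bowtie2 2.2.5, HISAT2 2.0.4 and DESeq and the hg19 build without their roles, and no source used here gives the annotation or the use of strand. The deposited table holds whole-number read counts per gene name and library, and these counts entered every test. As RSEM is named, they may be rounded estimates. Genes in it have at least 10 counts over the 4 libraries, and 27 gene names occur more than once, none of them a member. The authors' RPKM values per gene and library, per the file headers, gave levels per length and shares within families. The authors' columns of log2 fold change and p-value, named so per the file headers, were used only for the counts credited to them. The signal column (mean normalized count) and the score column (Wald statistic), as deposited by the authors, entered no result.

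Fold changes came from edgeR 4.0.16 in R 4.3.3 with TMM factors (1.04 and 1.03 in siCEBPG, 0.967 and 0.966 in Control), filterByExpr (minimum count 10) and a quasi-likelihood F test (two-sided) on group alone, adjusted by Benjamini-Hochberg over 14207 genes. The SE is the size of the log2 fold change divided by the square root of F. SDs are over n = 2. Chi-square per gene was 2.03 within siCEBPG and 1.64 within Control, against 40.88 to 41.86 between groups, so no library was a copy of another. Alternatives were upper-quartile, RLE and total-count scaling, no filter and a filter at 5 CPM, DESeq2 1.42.0, limma-voom (limma 3.58.1), the replicate number as a block, fold changes freed of their GC and length trend, and each library left out, which leaves 1 library in its group, assumed to vary like the others. GC content and length came from GENCODE 29, which matched 88% of genes tested and all members, and promoters from RefSeq; neither is known to be the authors' annotation. Named genes were CEBPG, all members, the called gene with the largest rise and fall in each further list, and genes in counts of 5 or fewer; DLAT, PDHX and the marker genes were named after their values were seen. Some genes that this rule names are not reported here.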

Additional observations from a re-analysis of the deposited data

How the results depend on the processing

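Over 13 alternatives the glycolytic class had 17 to 19 genes lower and 2 higher with each library left out, and 19 of its 21 calls held in every alternative. The hypoxia class, where 4 of 12 calls held in every alternative, had 4 to 6 lower and 1 to 3 higher with a library left out: 5 were lower without Control replicate 1, 4 without Control replicate 2, and 1 was higher without siCEBPG replicate 1. How many calls over all genes held in every alternative was not computed. The hypoxia class had 5 higher with upper-quartile scaling and 5 with the filter at 5 CPM. With total counts it had 6 higher and 6 lower, where 21.7% of all genes tested were lower. The glycolytic median was -0.29, -0.26, -0.32 and -0.42 with upper-quartile scaling, total counts, the filter at 5 CPM and the GC and length trend removed, and -0.38 to -0.34 with a library left out. The hypoxia median was -0.14, -0.11, -0.15 and -0.17 in the same order, -0.22 without a filter, -0.22 with DESeq2 and -0.24 to -0.18 with a library left out. The values that turned in sign were not called: PFKFB2 was at 0.02 (0.0152) with upper-quartile scaling, 0.04 (0.0445) with total counts, 0.002 without siCEBPG replicate 2 and 0.03 (0.0272) without Control replicate 1, PFKM at -0.03 (-0.0279) without siCEBPG replicate 2 (0.1039 without siCEBPG replicate 1) and NDRG1 at -0.07 (-0.0746) with the GC and length trend removed. PFKM was called higher with total counts (0.1363), and NDRG1 with upper-quartile scaling (0.1371), total counts (0.1663) and the filter at 5 CPM (0.1108). The cause of these moves was not tested. Over all genes, 1737 to 2345 were higher and 2572 to 3049 lower with a library left out (1879 and 2689 without Control replicate 1, 1737 and 2572 without Control replicate 2, 2345 higher without siCEBPG replicate 1 and 2342 without siCEBPG replicate 2), and 2210 were higher with DESeq2. The share of calls that were higher was 46.9% with TMM, 57.1% with upper-quartile scaling and 61.6% with total counts. The further lists had 32 genes higher with total counts, 11 with DESeq2 and 8 to 14 with a library left out, and 39 to 49 lower with a library left out. Without genes that hold the 4 words, the glycolytic class had 12 lower and 0 higher of 14, and the hypoxia class 4 lower and 0 higher of 7, where fewer genes were tested and all 5 members called higher had been left out. Shares of summed counts in place of RPKM differed by 7.77 points for PFKL, 0.738 for PFKM, -8.51 for PFKP, 0.480 for ALDOA, -6.25 for LDHA and -19.4 for HIF1A. Same-numbered replicates did not deviate together (correlation 0.037, 2 pairs), so the number was not taken as a pairing. With the replicate block, 3811 genes were higher and 4319 lower, and the members had 2 higher and 19 lower glycolytic and 4 higher and 9 lower hypoxia calls. CA9, BNIP3 and ANKRD37 had 28 to 120 counts per library, and the part of depth in their lost calls was not tested.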
